A study of Mus musculus with 6 samples.

Results

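The Hippo pathway genes followed here are Yap1 and Wwtr1, Tead1, Tead2, Tead3 and Tead4, Lats1 and Lats2, and Ccn1 and Ccn2. They were taken by gene symbol from the deposited expression table, where all 10 were found among 13283 listed genes. RNA-seq was done on 6 libraries of immortalized mouse brown preadipocytes (BAT cells) that express Cas9 and had been differentiated to brown adipocytes in culture. The 3 control libraries, called Scr, come from cells transduced with scrambled sgRNA (genotype WT in the labels), and the 3 MICT1 KO libraries (KO for short) come from CRISPR knockout pools of MICT1, a microprotein enriched in brown fat. All 6 cultures were treated on day 6 of differentiation with 10 µM forskolin, which activates adenylyl cyclase and thereby PKA, for 6 h, so no culture shows the unstimulated state. Both groups derive from 1 cell line, the labels do not say which of the sgRNA pools a MICT1 KO library came from, and they do not say whether replicates were grown or harvested separately, so the p values cover only the spread between these libraries. MICT1 itself was not analysed here.

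In the Hippo pathway the kinases LATS1 and LATS2 phosphorylate the coactivators YAP (Yap1) and TAZ (Wwtr1), which keeps them out of the nucleus and leads to their breakdown. When the kinases are inactive, YAP and TAZ enter the nucleus, bind the DNA-binding TEAD factors and switch on target genes, of which Ccn1 (formerly Cyr61) and Ccn2 (formerly Ctgf), both secreted matricellular proteins, are the usual readouts. In adipose cells YAP and TAZ are known to restrain adipocyte differentiation, TAZ by binding PPARγ, and cAMP and PKA signaling is known to activate LATS kinases. RNA levels measure neither the phosphorylation nor the location of these proteins.

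Ccn1 and Ccn2 were the members that differed most, so the promoter of Ccn1 is shown with that of Wwtr1, whose level did not pass the test between the groups. Each is the stretch of 250 bases upstream of the annotated start (RefSeq, GRCm38.p6, minus strand, at chr3:145649986-145650235 for Ccn1 and chr3:57575911-57576160 for Wwtr1), and no other promoter is printed. Capitals mark matches, on either strand, to the TEAD core GGAATG and to TGACG, the core of the cAMP response element (CRE).
Ccn1: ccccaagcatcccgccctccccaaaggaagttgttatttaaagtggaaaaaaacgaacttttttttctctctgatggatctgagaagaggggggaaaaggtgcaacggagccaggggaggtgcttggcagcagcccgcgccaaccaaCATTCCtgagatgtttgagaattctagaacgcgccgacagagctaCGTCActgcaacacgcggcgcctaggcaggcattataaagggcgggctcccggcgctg
Wwtr1: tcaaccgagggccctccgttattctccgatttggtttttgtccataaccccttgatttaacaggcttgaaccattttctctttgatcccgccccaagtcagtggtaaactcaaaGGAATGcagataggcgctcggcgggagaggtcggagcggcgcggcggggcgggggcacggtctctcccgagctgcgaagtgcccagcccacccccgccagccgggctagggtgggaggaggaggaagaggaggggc

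In the Ccn1 promoter the TEAD core begins at position -103 from the start and reads CATTCC, on the reverse strand. The CRE core begins at position -58 and reads CGTCA, also on the reverse strand, with no overlap between them. The Wwtr1 promoter holds 1 TEAD core, at position -136, and no CRE core. RefSeq promoter windows of 300 bases were matched for 7 of the 10 genes (11 windows). Ccn2, Tead1 and Tead4 had no window in the reference used, so their promoters were not searched for any motif. The TEAD core was found in windows of Yap1, Wwtr1, Tead3, Lats2 and Ccn1, and the CRE core in windows of Lats2 and Ccn1. Of all 32851 windows of that length 14.7% hold the TEAD core and 20.8% the CRE core, and among the 13410 windows of genes listed in the table the shares are 12.3% and 30.6%. The CArG box, the site of serum response factor, was in none of the 11 windows and in 1.63% of all windows (1.31% of those of listed genes). A match is only a run of letters, and genes with and without a difference between the groups hold the TEAD core.

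Each value in the table is a read number that was corrected for the size of its library, here called normalized reads. The libraries hold between 15441188 and 17918805 reads when multiplied back, and over the 12507 genes tested their Pearson correlations across genes were 0.987 to 0.990 within the groups and 0.929 to 0.940 between them. Genes are not independent replicates, so this describes the libraries only. Groups were compared with limma-trend on log2(value + 1), a scale on which low genes appear to change slightly less than they did, with Benjamini-Hochberg adjustment of p across all genes tested and a threshold of 0.05. The difference in log2(value + 1), KO minus Scr, is written log2FC. With this test 56.9% of all genes tested passed, and 28.5% were higher and 28.3% lower in MICT1 KO cells. Of the 10 members, 5 were higher (Ccn2, Ccn1, Lats2, Tead3 and Tead2), 2 were lower (Yap1 and Lats1) and 3 did not pass (Wwtr1, Tead1 and Tead4). A rise of at least 2-fold was reached by 7.99% of all genes tested, and among the members by Ccn1 and Ccn2. A fall of that size was reached by 5.76% of all genes and by no member. The groups did not overlap for 6 of the 10 members, 5 upward and 1 downward, beside 62.0% of all genes tested (30.9% upward and 31.2% downward).

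The libraries are labelled brown adipocytes, and markers of adipocytes differed strongly between the groups. All 9 tested adipocyte markers were lower in MICT1 KO cells, beside 28.3% of all genes tested. Their summed level was 124439 to 148276 normalized reads in Scr and 14619 to 21095 in the MICT1 KO libraries. Fabp4, the fatty acid carrier of adipocytes, fell from 53343 ± 4093 to 5461 ± 1571 normalized reads, Lpl from 55039 ± 5481 to 10184 ± 1255, and Cebpa from 8019 ± 1353 to 991 ± 148 (SD, n = 3). Among brown adipocyte markers Ucp1, singled out after its values were seen, had 20.8, 24.1 and 30.5 normalized reads in Scr, against 1.91, 1.05 and 9.33 under KO. It was low throughout, and every KO value lay below every Scr value. Ucp1 met the level needed for testing only through the Scr libraries, so no test result is read from it. Cox7a1, Pank1 and Ppara did not pass, Ppargc1a was too low to test, and the other 5 listed markers were not analysed here. In bulk RNA, fewer differentiated cells and less RNA of a gene per cell cannot be told apart, which holds for every value given here.

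The secreted targets came first by size. Ccn1 (chromosome 3, from 145646976 to 145649981, GENCODE vM21 on GRCm38) had 3338, 3382 and 2989.7 normalized reads in Scr replicates 1, 2 and 3, against 26859.9, 26296 and 27133 in the same-numbered KO replicates. Every MICT1 KO library was far above every Scr library, and the spread within each group was small. The means were 3236 ± 215 and 26763 ± 427 (SD, n = 3 each), a rise of 8.27-fold, log2FC 3.05 ± 0.0554 (SE, limma-trend adjusted p = 3.31e-20). Ccn2 (chromosome 10, from 24595442 to 24598683) had 549, 441 and 475 normalized reads in Scr, against 5202, 5459.9 and 5538 under KO. Its groups were as clearly apart, at a lower level than Ccn1. With means of 488 ± 55.1 and 5399.9 ± 176 (SD, n = 3 each) it rose 11.1-fold, log2FC 3.47 ± 0.0739 (SE, limma-trend adjusted p = 5.87e-19). Among the 12507 genes tested, ordered by log2FC, Ccn2 held place 26 and Ccn1 place 49 of the rises. An antisense transcript, Gm15270, lies over 23.2% of the exon bases of Ccn2 and was not analysed here. The methods describe strand-specific libraries, but the labels describe library construction by a service provider, so reads of the antisense strand in the value of Ccn2 were not tested.

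**Figure D1:**
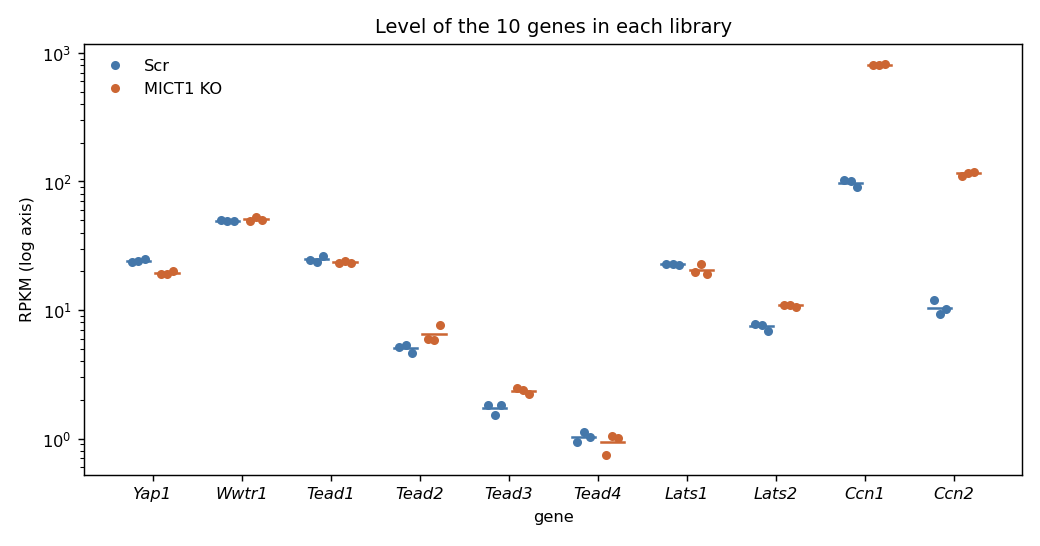
Level of the 10 genes per exon length and library total (RPKM, log axis) in each of the 6 libraries. Points are libraries, short lines are group means, blue is Scr and orange MICT1 KO. Ccn1 and Ccn2 stand apart between the groups (means of 97.9 and 812 RPKM for Ccn1, 10.4 and 116 for Ccn2), while Wwtr1, Tead1, Tead4 and Lats1 overlap.

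Per length, in RPKM (normalized reads per kilobase of exon, scaled to the library total), Ccn1 was the most abundant member in both groups, at 97.9 ± 6.63 RPKM in Scr and 812 ± 13.6 RPKM under KO (SD, n = 3 each). Ordered by RPKM among the 13136 genes with a known exon length, it went from place 423 in Scr to place 29 in MICT1 KO cells. Ccn2, at 10.4 ± 1.34 RPKM in Scr and 116 ± 4.48 RPKM in MICT1 KO cells (SD, n = 3 each), went from place 4776 to place 355. Within a library Ccn1 exceeded Ccn2 by 3.11, 3.44 and 3.16 on the log2 scale of RPKM in Scr and by 2.87, 2.77 and 2.80 in the MICT1 KO libraries. This excess was smaller in every MICT1 KO library, with a mean difference of -0.42 (exact permutation test, two-sided, p = 0.1, the smallest that 3 against 3 libraries can give). As a ratio, Ccn1 went from 9.41 times to 7.03 times the level of Ccn2.

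The order below Ccn1 in Scr cells was Wwtr1 (49.5 ± 0.391 RPKM), Tead1 (24.8 ± 1.38), Yap1 (24.1 ± 0.553), Lats1 (22.7 ± 0.350), Ccn2, Lats2 (7.44 ± 0.473), Tead2 (5.05 ± 0.377), Tead3 (1.72 ± 0.177) and Tead4 (1.03 ± 0.0889), each an RPKM mean ± SD with n = 3. Tead1 and Yap1 overlapped between libraries and were not separated by their spread, while the libraries of each other pair of neighbours did not overlap. In MICT1 KO cells Ccn2 moved to the second place, above Wwtr1 (51.1 ± 2.06 RPKM) and Tead1 (23.5 ± 0.647 RPKM, SD, n = 3 each). Lats1 (20.4 ± 1.99 RPKM) and Yap1 (19.4 ± 0.545 RPKM) then overlapped, and Tead4 stayed last at 0.932 ± 0.166 RPKM (SD, n = 3 each).

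Of the coactivators, Yap1 was lower and Wwtr1 did not pass. Yap1 (chromosome 9, from 7931999 to 8004596) had 3539, 3673 and 3756 normalized reads in Scr, against 2920.2, 2849 and 3003 under KO. All MICT1 KO values lay below all Scr values. Yap1 fell from a mean of 3656 ± 109 to 2924 ± 77.0 (SD, n = 3 each), log2FC -0.32 ± 0.0549 (SE, limma-trend adjusted p = 4.07e-05). Wwtr1 (chromosome 3, from 57455649 to 57575910), the gene of TAZ, had 3839, 3936 and 3845 normalized reads in Scr, against 3877, 4151 and 3924 under KO. These groups overlapped. The log2FC was 0.04, with a 95% interval from -0.07 to 0.15 (limma-trend adjusted p = 0.545).

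Wwtr1 exceeded Yap1 per length in each of the 6 libraries. The log2 ratio of Wwtr1 to Yap1 (RPKM) was 1.07, 1.05 and 0.988 in Scr, against 1.36, 1.497 and 1.34 under KO, so that TAZ transcripts were 2.05 times those of YAP in Scr and 2.64 times in MICT1 KO cells. The groups did not overlap (difference 0.36, exact permutation test, two-sided, p = 0.1, the smallest possible). Since both genes are read in the same library, this ratio does not depend on how libraries are scaled.

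**Figure D2:**
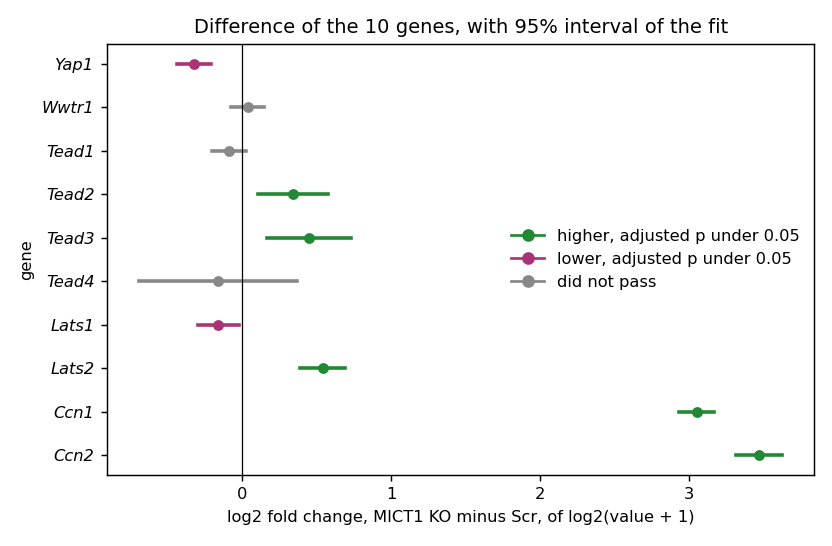
Log2 fold change of each of the 10 genes (MICT1 KO minus Scr, on the scale of log2(value + 1)), with the 95% interval of the limma-trend fit. Green marks genes higher, purple genes lower and grey genes that did not pass at an adjusted p of 0.05. Ccn2 (3.47) and Ccn1 (3.05) lie far to the right, and the other 8 genes lie between -0.32 and 0.54.

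Of the kinase genes Lats2 was higher and Lats1 passed narrowly as lower. Lats2 (chromosome 14, from 57689662 to 57758388), which is also a target gene of YAP and TAZ and so part of a feedback, had 874, 884 and 789 normalized reads in Scr, against 1261, 1246 and 1199 under KO. The groups were well apart. The mean rose 1.46-fold, log2FC 0.54 ± 0.0731 (SE, limma-trend adjusted p = 2.15e-06). A protein-coding gene on the same strand, Gm49361, shares 42.4% of the exon bases of Lats2 and was not analysed here, so the split of reads between them is uncertain. Lats1 (chromosome 10, from 7681214 to 7716460) had 2703, 2747 and 2667 normalized reads in Scr, against 2351, 2696 and 2250.3 under KO. MICT1 KO replicate 2 lay inside the Scr range. Its log2FC was -0.16 ± 0.0652 (SE, limma-trend adjusted p = 0.0449), just under the threshold. The call was lost without Scr replicate 1 (-0.16, adjusted p = 0.0888), 2 (-0.15, 0.127) or 3 (-0.17, 0.0621) and without MICT1 KO replicate 1 (-0.14, 0.108) or 3 (-0.10, 0.236), all by limma-trend. It was also lost with libraries scaled by their sum (-0.15, adjusted p = 0.0544) or upper quartile (-0.12, adjusted p = 0.126).

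By the listed values, Lats1 was the more abundant kinase gene per length in every library. Reads on the bases that Lats2 shares with Gm49361 may be missing from the Lats2 values, which was not tested. The log2 ratio of Lats2 to Lats1 (RPKM) was -1.56, -1.57 and -1.69 in Scr, against -0.83, -1.05 and -0.84 under KO. As a ratio, Lats2 went from 0.328 to 0.533 of the level of Lats1, without overlap between the groups (difference 0.70 on the log2 scale, exact permutation test, two-sided, p = 0.1, the smallest possible).

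Among the TEAD factors Tead2 and Tead3 were higher, while Tead1, the main one, and Tead4, the scarcest, did not pass. Tead1 (chromosome 7, from 112679318 to 112906807) had 5315, 5365 and 5872 normalized reads in Scr, against 5165, 5348 and 5081 under KO, and the groups overlapped. Its log2FC was -0.08, with a 95% interval from -0.20 to 0.03 (limma-trend adjusted p = 0.199). Tead2 (chromosome 7, from 45215753 to 45233644) had 401, 424 and 362 normalized reads in Scr, against 464, 456 and 593 under KO. The groups did not overlap, but MICT1 KO replicate 3 was well above the other MICT1 KO libraries. Its log2FC of 0.34 ± 0.113 (SE, limma-trend adjusted p = 0.0135) was 0.22 without that library (adjusted p = 0.122) and 0.28 without Scr replicate 3 (adjusted p = 0.0605), and passed in neither fit.

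Tead3 (chromosome 17, from 28331671 to 28350817) had 199, 169.6 and 199 normalized reads in Scr, against 273, 262 and 242 under KO, with no overlap. It rose with log2FC 0.45 ± 0.136 (SE, limma-trend adjusted p = 0.00768). Tead4 (chromosome 6, from 128224288 to 128300823) was low in both groups, with 54.4, 66.7 and 61.1 normalized reads in Scr, against 43.9, 61.1 and 59.1 under KO. At these values its log2FC of -0.16 had a wide 95% interval, from -0.69 to 0.37 (limma-trend adjusted p = 0.616). Reads can be told apart between these paralogues for nearly all of their length: of the runs of 50 bases in their transcripts, 0.145% of those of Tead3 and 0.272% of those of Tead4 occur in the other, and none of those of Tead1 or Tead2 in another member.

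As a share of the summed RPKM of the 4 TEAD genes, Tead1 made up 75.3%, 74.9% and 78.0% in Scr, against 71.8%, 72.3% and 68.0% under KO. Its mean share was 76.1% ± 1.65 in Scr and 70.7% ± 2.33 under KO (SD, n = 3 each). Tead2 held 15.5% ± 1.65 and 19.4% ± 2.69, Tead3 5.28% ± 0.457 and 7.12% ± 0.564, and Tead4 3.16% ± 0.317 and 2.80% ± 0.438, in Scr and MICT1 KO cells (SD, n = 3 each). The groups did not overlap for Tead1, Tead2 and Tead3 (exact permutation test, two-sided, p = 0.1 each, the smallest possible), and overlapped for Tead4 (p = 0.5 by the same exact test). The difference in the Tead2 share, 3.92 percentage points, was 2.38 without KO replicate 3. In both groups Tead1 stayed the main TEAD transcript by a wide margin.

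**Figure D3:**
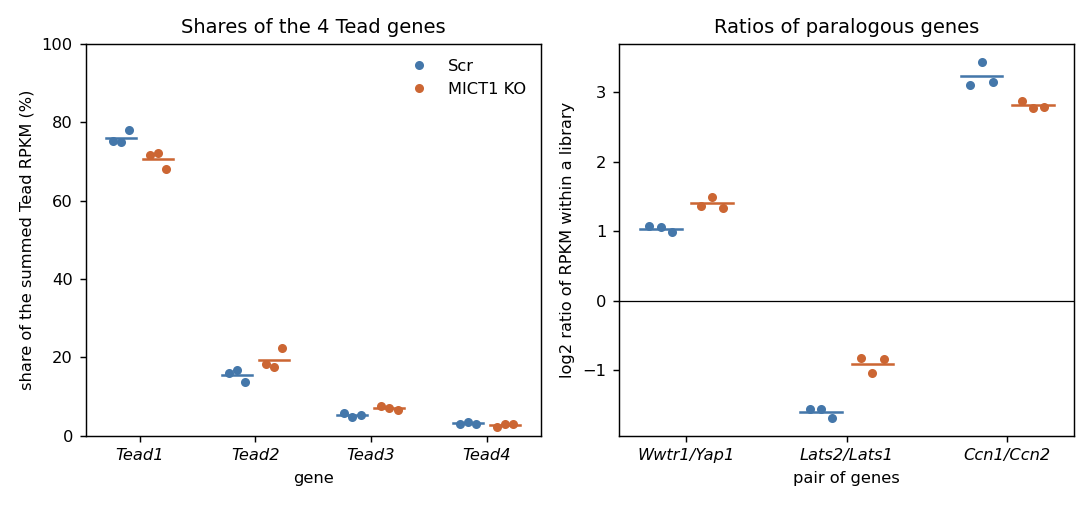
Left, share of each Tead gene in the summed RPKM of the 4 Tead genes (%) in each library. Right, log2 ratio of RPKM within a library for Wwtr1 to Yap1, Lats2 to Lats1 and Ccn1 to Ccn2. Points are libraries, lines are group means, blue is Scr and orange MICT1 KO. Tead1 goes from 76.1% to 70.7%, and the groups are apart for each of the 3 ratios.

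A list of 22 genes commonly used as readouts of YAP and TAZ, which includes the members Ccn1, Ccn2 and Lats2, was described next. In MICT1 KO cells 16 of them were higher, 3 were lower and 3 did not pass (limma-trend), beside 28.5% higher and 28.3% lower over all genes tested. The median log2FC was 0.81, against -0.005 over all genes. Leaving out the 3 members, 13 of 19 were higher and 3 lower, with a median of 0.73. At least 2-fold rises numbered 8 with the members and 6 without them, beside 7.99% of all genes tested. Falls of that size numbered 1 with and 1 without the members, beside 5.76% of all genes tested.

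After Ccn2 and Ccn1, the largest rises were those of Ankrd1 and Gadd45a. Ankrd1, a stretch-responsive cofactor known from muscle, had 115, 140.0 and 143 normalized reads in Scr, against 849, 818 and 745 under KO (log2FC 2.59 ± 0.120 SE, limma-trend adjusted p = 1.27e-13). Gadd45a, a growth arrest and DNA damage response gene, had 126, 232 and 159.7 in Scr, against 602, 511 and 529.7 under KO (log2FC 1.70, limma-trend adjusted p = 1.48e-08). In both, the lowest MICT1 KO library was more than 2-fold above the highest Scr library. The genes that moved the other way were Nt5e, Igfbp3 and Dock5. Nt5e, the surface enzyme that makes adenosine from AMP, fell from 121, 141 and 125 normalized reads in Scr to 6.67, 17.9 and 10.4 under KO (log2FC -3.46, limma-trend adjusted p = 2.07e-08). Igfbp3, which binds insulin-like growth factors, fell from 2215 ± 178 to 1457 ± 96.0, and Dock5, an activator of Rac, from 708 ± 28.8 to 554 ± 53.1 normalized reads (SD, n = 3 each). Of these falls only that of Nt5e reached 2-fold. The 3 genes that did not pass, named after their values were seen, were Asap1 (-0.15), Fjx1 (0.53) and Tgfb2 (0.32), with log2FCs in brackets.

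**Figure D4:**
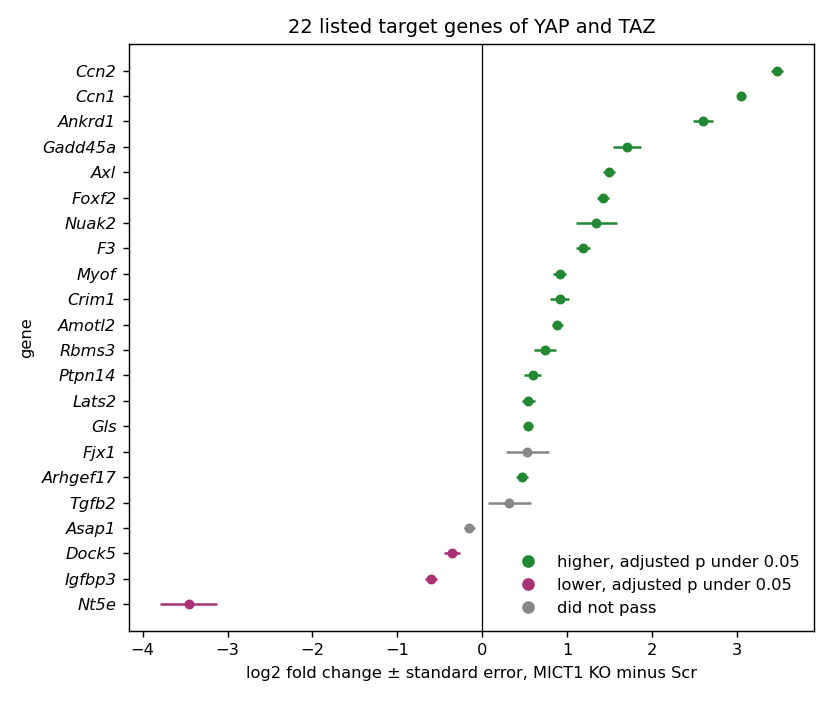
Log2 fold change (MICT1 KO minus Scr) ± standard error from limma-trend for the 22 listed target genes of YAP and TAZ. Green marks genes higher, purple genes lower and grey genes that did not pass at an adjusted p of 0.05. There are 16 green points, with Ccn2 at the top (3.47), and 3 purple points, with Nt5e at the bottom (-3.46).

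The CCN family has further members, of which Ccn3, Ccn4 and Ccn5 were measured. Ccn4 (formerly Wisp1) had 484, 399.5 and 323 normalized reads in Scr, against 1015, 1062 and 834 under KO, and rose with log2FC 1.28 ± 0.121 (SE, limma-trend adjusted p = 1.23e-08). Ccn5 (formerly Wisp2) had 176, 102 and 77.3 in Scr, against 305, 282 and 344 under KO, and rose with log2FC 1.46 ± 0.211 (SE, limma-trend adjusted p = 5.26e-06). Both had groups that did not overlap, as did Ccn1 and Ccn2, beside 62.0% of all genes tested (30.9% upward). Ccn3 (formerly Nov) was low and overlapped, with 35.6, 31.5 and 51.9 in Scr, against 30.5, 16.9 and 40.4 under KO (log2FC -0.48, limma-trend adjusted p = 0.274).

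Upstream of YAP and TAZ, 16 genes of the kinase cassette were tested, of which 3 were higher and 5 lower, with a median log2FC of -0.005, beside 28.5% higher and 28.3% lower over all genes tested. Without Scr replicate 2 or KO replicate 3, only 1 was higher. No call among them reached 2-fold. The largest falls were those of Stk38 (NDR1, a relative of the LATS kinases, from 2098 ± 64.7 to 1333 ± 83.3 normalized reads, SD, n = 3), Mink1, Taok1 and Stk4, the last of which encodes MST1, a kinase that activates LATS. Stk4 went from 1198 ± 106 to 992 ± 17.5 normalized reads (SD, n = 3; log2FC -0.27, limma-trend adjusted p = 0.00452). Taok3 (log2FC 0.36) and Taok2 (0.22) rose. The third rise, that of Map4k1, named after its values were seen, was between overlapping groups with at most 61.2 normalized reads.

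Of 24 upstream regulators of the pathway, 11 were higher and 8 lower, with a median log2FC of 0.25, beside the same 28.5% and 28.3% over all genes. Without Scr replicate 2 or KO replicate 1, 5 were lower. Ajuba, a LIM protein that inhibits LATS, rose from 329.8 ± 38.0 to 945 ± 104 normalized reads (SD, n = 3; log2FC 1.52, limma-trend adjusted p = 9.31e-11). Its relatives went the other way: Wtip fell from 1012 ± 60.5 to 534 ± 27.6 (log2FC -0.92, limma-trend adjusted p = 5.56e-09) and Limd1 from 1827 ± 36.3 to 1361 ± 117 normalized reads (log2FC -0.43, limma-trend adjusted p = 2.06e-05; SD, n = 3). Amot, an angiomotin that holds YAP outside the nucleus, rose with a log2FC of 1.16, and Wwc2, a relative of the LATS activator KIBRA, with 1.10. Fat4, an atypical cadherin, rose with 1.04 at no more than 88.5 normalized reads. Nf2, the gene of the LATS scaffold merlin, fell from 2718 ± 106 to 2156 ± 34.4 normalized reads (SD, n = 3; log2FC -0.33, limma-trend adjusted p = 4.72e-05). Activators and inhibitors of LATS were thus found among both the higher and the lower genes. Amotl2, Ptpn14 and Fjx1 stand in this list and in that of the target genes.

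Of 8 tested cofactors of YAP and the TEADs, 2 were higher and 4 lower, against 28.5% and 28.3% of all genes. The vestigial-like genes, whose proteins bind TEADs in place of YAP, moved in opposite directions. Vgll3 had 411, 369 and 356 normalized reads in Scr, against 2619, 2851 and 2455 under KO, a rise of 6.97-fold (log2FC 2.80 ± 0.0795 SE, limma-trend adjusted p = 4.43e-17). Vgll4, known to compete with YAP for TEAD, had 1919.8, 1838 and 2158 in Scr, against 1057, 1057 and 1062 under KO (log2FC -0.89 ± 0.0692 SE, limma-trend adjusted p = 6.00e-10). Neither gene's groups overlapped. Runx2, a transcription factor of bone that binds YAP and TAZ, rose with a log2FC of 0.48, while Smad3 (-0.58), Arid1a (-0.42) and Smad2 (-0.25) fell.

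The 3 tested genes whose pattern over the 6 libraries was most like that of Ccn2, by Pearson's r of log2(value + 1), were Gspt2, Rnd3 and Cxcl10, with r of 0.999 each. The libraries form separate groups, so r here mostly reflects a difference between groups with little spread inside them. The size of that difference varied, with log2FCs of 1.44, 1.52 and 4.43.

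Preadipocyte and fibroblast markers did not move together. Of 7 tested, 3 were higher and 3 lower, beside 28.5% higher and 28.3% lower over all genes tested. The summed level of the 9 measured was 36790 to 42179 normalized reads in Scr and 49881 to 53693 in the MICT1 KO libraries. The higher sum was carried by Col1a1, which rose from 17955 ± 585 to 30595 ± 2507 normalized reads (SD, n = 3, log2FC 0.77), while Col3a1 did not pass (-0.05) and Pdgfra was slightly lower (-0.19). The larger changes, named after their values were seen, went both ways: Dlk1 (log2FC -3.47) and Dpt (-1.34) fell and Ly6a (1.39) rose. For smooth muscle markers, with 6 of 10 measured, the sums were 1784 to 2163 and 2784 to 2980, carried by Smtn (1494 ± 181 and 2460.2 ± 106 normalized reads, SD, n = 3), while Acta2 fell and Tagln did not pass. The 4 of 10 macrophage markers measured summed to 267 to 384 in Scr and 516 to 638 in the MICT1 KO libraries, of which only Cd14 passed. The 2 of 10 endothelial markers measured summed to 60.0 to 103 and 99.1 to 131. Egfl7 overlapped and did not pass (75.6 ± 22.6 and 82.6 ± 17.2 normalized reads, SD, n = 3, limma-trend adjusted p = 0.631). Cdh5 had 8.71 ± 3.10 and 29.9 ± 3.76 normalized reads (SD, n = 3). Cdh5 met the level of 10 needed for testing only through the MICT1 KO libraries, so no test result is read from it. Marker genes without a value are not analysed here. The part of the lower adipocyte marker level and of the other marker lists in the differences of Ccn1, Ccn2 and the other members was not tested.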

How the data were processed

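The authors deposited 1 table of 13283 genes by 6 libraries whose values are a normalized signal, not whole counts. Per the methods, reads were aligned to NCBI38/mm10 with Partek software. The submitters' processing notes name Partek, STAR and DESeq2 without roles, and the counting model and annotation are not given in the sources used here. Among values below 20, 88.8% to 90.4% per library lay within 0.01 reads of a whole multiple of its step (size factors from 0.949 to 1.08), too few to take whole reads back, so no count test was run. Every listed value is above 0, and genes not listed were not analysed here.

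Genes reaching 10 in 3 or more libraries were compared with limma 3.58.1 (limma-trend, R 4.3.3) on log2(value + 1). RPKM used the sum of a library's values and GENCODE vM21 exon lengths, found for 13136 genes (98.9%). Tests were checked on simulated data with a dispersion of 0.01 for every gene. Of 50 genes changed 2-fold (log2 of 1) among 12373, 49 were recovered, and of 50 at a log2 of 0.5, 28 were. Of the unchanged genes 17 were called. Far fewer genes were changed there than pass here, so these numbers do not give the recovery in the real data. The members and lists were chosen with earlier results of these data known, so no p was adjusted over a list. Named genes were all members, the 4 largest rises and falls per pathway list among called genes without overlap (all genes of lists up to 5), the 3 highest marker genes per list and the 3 genes most like the member that changed most. A gene that this rule names is not reported here. A comparison of proteins was not made. Replicate numbers are shared between groups, but same-numbered libraries did not deviate together (correlations of -0.0236, -0.0155 and 0.0637 over 12507 genes), so they were not treated as pairs.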

Additional observations from a re-analysis of the deposited data

How the results depend on the processing

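Scaling by library sum or upper quartile, limma-voom, pseudocounts of 0.5 and 5, other filters, the replicate number as a block and each library left out in turn gave 14 alternatives. No member changed sign in any of them. Ccn1 stayed between 2.99 and 3.09, Ccn2 between 3.40 and 3.56, Lats2 between 0.49 and 0.58 and Yap1 between -0.35 and -0.28, all past the threshold, and Tead3 passed in the 13 that tested it. The members lower numbered 2 as reported and 1 with scaling by library sum or upper quartile, where Lats1 no longer passed, and 1 to 2 with a library left out. The members higher then numbered 4 to 5, the loss being Tead2. The Hippo upstream regulators lower went from 8 to 5 with scaling by upper quartile and were 5 to 8 with a library left out. The kinase cassette genes higher went from 3 to 1 with the filter at a maximum of 4 RPKM, which tests fewer genes, and were 1 to 3 with a library left out. With the replicate number as a block, 5 members were higher and 2 lower, as without it, and 3543 genes were higher and 3512 lower. The differences in the 3 ratios and the Tead shares moved by less than the SD pooled over both groups, the Tead2 share from 3.92 to 2.38 points without KO replicate 3. Over all genes, 2618 to 3833 were higher and 2853 to 3565 lower. The low values of Tead3 and Tead4 limit how small a change could be detected for them.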
